A study of Mus musculus with 3 samples.

Results

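RNA levels of 41 genes of glycolysis, the pentose phosphate pathway and the hypoxia-inducible factor (HIF) pathway were read in mouse RAW264.7 cells treated with RANKL and thyroid stimulating hormone (TSH). The genes were taken by symbol from a list of enzymes, transporters and HIF pathway genes, and all 41 of 41 were found among the 54532 genes of the table. The study asked what TSH does to gene expression in osteoclasts. RAW264.7 is an established macrophage-like line, labelled wild type here. All 3 libraries came from cells that had received RANKL, the cytokine that drives osteoclast formation, for 3 days. The control library had RANKL and no TSH and is labelled 0 h. The other libraries were made after TSH at 10 mU/mL for 2 h and for 24 h, with RANKL as well. The table names their columns T1 and T2 and does not say which of these is which time, so they are called the T1 and T2 libraries here. Cells without RANKL were not analysed here. Each condition has 1 library of 1 cell line, so no difference below has a replicate check and no p-value is given.

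Glycolysis splits glucose into pyruvate and yields ATP. Its upper steps spend ATP to prime the sugar, its lower steps return ATP and NADH, and lactate dehydrogenase turns pyruvate into lactate to regain NAD. The pentose phosphate pathway branches off at glucose 6-phosphate and supplies NADPH and ribose 5-phosphate. HIF1 is a transcription factor whose alpha subunit is hydroxylated by the EGLN enzymes when oxygen is present and is then degraded. When oxygen is low it raises many glycolytic genes by binding the hypoxia response element, whose core is ACGTG or GCGTG. Osteoclasts use glycolysis during formation and bone resorption.

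Levels are the authors' deposited FPKM, a read count divided by gene length and by library depth. FPKM times gene length gave whole reads, summing to 16156926 for the library of RANKL alone (the control below), 16809034 for T1 and 17390744 for T2. Ratios between libraries are given with exact 95% intervals from these reads. A value is called beyond counting error where its interval leaves out a ratio of 1, which compares these libraries and not the conditions. A gene that misses this call is not shown to be equal. A fold rule was also counted, at least 1.2-fold on log2(FPKM + 1), among the 11069 genes whose mean over the 3 libraries was 1 FPKM or more. Of the 41 genes, 39 passed that filter, and Ldhb and Egln3 did not.

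The labelled cell type was checked against lineage markers. Of 10 osteoclast markers, 9 passed the filter, with Ctsk, the collagen-degrading protease cathepsin K, at 1337, 983 and 979.9 FPKM in RANKL alone, T1 and T2, and Acp5, the resorption enzyme TRAP, at 972, 857 and 822 FPKM. The summed level of the osteoclast markers was 3097, 2572 and 2496 FPKM. Beyond counting error 1 was higher (Nfatc1) and 6 lower in T1, where 10.8% and 12.2% of all genes were. In T2 the counts were 0 and 9, against 10.2% and 13.2% of all genes. Macrophage markers summed to 1233, 1219 and 1220.1 FPKM. Markers of osteoblasts and fibroblasts, neutrophils, and erythroid and endothelial cells had 0 genes past the filter, with sums from 0.0949 to 0.484 FPKM, and 1 of 10 lymphocyte markers passed it, Lck at 1.25, 1.04 and 1.31 FPKM. The receptor of TSH is encoded by Tshr, which had 0, 2 and 0 reads. In bulk RNA, fewer cells of a type and less RNA per cell cannot be told apart, and the part of the lower osteoclast markers in the values below was not tested.

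The sequences that bear on 2 measurements are shown first. The promoters of Ldha and Pgk1, the marker genes of the list, of Bnip3, which had the lowest ratio past the filter in T1, and of Tpi1, a glycolytic gene without a core, are given as the 250 bases before the RefSeq start (GRCm38.p6, gene strand, 5′ to 3′), with cores of the hypoxia response element on either strand in capitals. They lie at chr7:46845554-46845803 (plus strand) for Ldha, chrX:106186850-106187099 (plus) for Pgk1, chr7:138909507-138909756 (minus) for Bnip3 and chr6:124814159-124814408 (minus) for Tpi1.
Ldha: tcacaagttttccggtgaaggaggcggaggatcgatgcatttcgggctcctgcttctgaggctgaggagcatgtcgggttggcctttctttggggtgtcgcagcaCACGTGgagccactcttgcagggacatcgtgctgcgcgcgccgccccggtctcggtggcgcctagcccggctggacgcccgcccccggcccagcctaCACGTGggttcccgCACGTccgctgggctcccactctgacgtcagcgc
Pgk1: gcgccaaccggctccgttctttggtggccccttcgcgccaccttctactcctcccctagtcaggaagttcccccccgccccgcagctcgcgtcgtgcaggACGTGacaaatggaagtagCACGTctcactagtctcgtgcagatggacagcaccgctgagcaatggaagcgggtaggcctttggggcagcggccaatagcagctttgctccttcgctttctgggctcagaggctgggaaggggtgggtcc
Bnip3: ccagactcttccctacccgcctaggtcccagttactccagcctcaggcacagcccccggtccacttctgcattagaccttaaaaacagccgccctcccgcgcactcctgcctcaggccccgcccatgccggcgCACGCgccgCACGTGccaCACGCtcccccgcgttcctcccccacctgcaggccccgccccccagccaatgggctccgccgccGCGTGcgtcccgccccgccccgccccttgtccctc
Tpi1: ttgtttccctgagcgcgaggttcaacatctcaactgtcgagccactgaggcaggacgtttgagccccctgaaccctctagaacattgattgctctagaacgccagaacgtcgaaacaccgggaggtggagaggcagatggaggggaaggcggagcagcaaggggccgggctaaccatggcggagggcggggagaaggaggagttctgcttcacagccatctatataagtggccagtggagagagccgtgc
These windows hold 5, 2, 5 and 0 cores. In the Ldha window 2 pairs of cores overlap as CACGTG, a palindrome that is read as ACGTG on both strands and is also an E-box, and in Bnip3 there is 1 such pair.

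The other pair shows how alike Gapdh and its processed pseudogene Gm13394 are, which bears on the Gapdh level below. Coding bases 301 to 391 of Gapdh, counted from the A of the start codon, and the matching bases of Gm13394 (both from GENCODE M21 transcripts) are given with the only base at which the 1000 compared bases differ in capitals, A346C.
Gapdh: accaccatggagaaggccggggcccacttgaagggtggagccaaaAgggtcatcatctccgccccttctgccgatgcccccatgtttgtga
Gm13394: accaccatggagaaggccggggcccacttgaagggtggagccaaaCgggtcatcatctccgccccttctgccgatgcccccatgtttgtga
The longest identical stretch between them was 654 bases.

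Together the 41 genes summed to 4386 FPKM in the control, 4418 in T1 and 4334 in T2, which was 1.29%, 1.27% and 1.28% of all FPKM. Some glycolytic mRNAs were among the most abundant of the cells. By FPKM with RANKL alone, Pkm ranked 21 among protein-coding genes, Aldoa 40, Ldha 67, Pgk1 75, Pgam1 122, Eno1 139 and Tpi1 160. The other genes of the upper and lower steps ranked further down, from Gpi1 at 478 to Eno2 at 7793. The HIF pathway genes were far lower, with 76.3 FPKM for all 8. The marker genes of the list, Ldha and Pgk1, were high in each library.

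**Figure D1:**
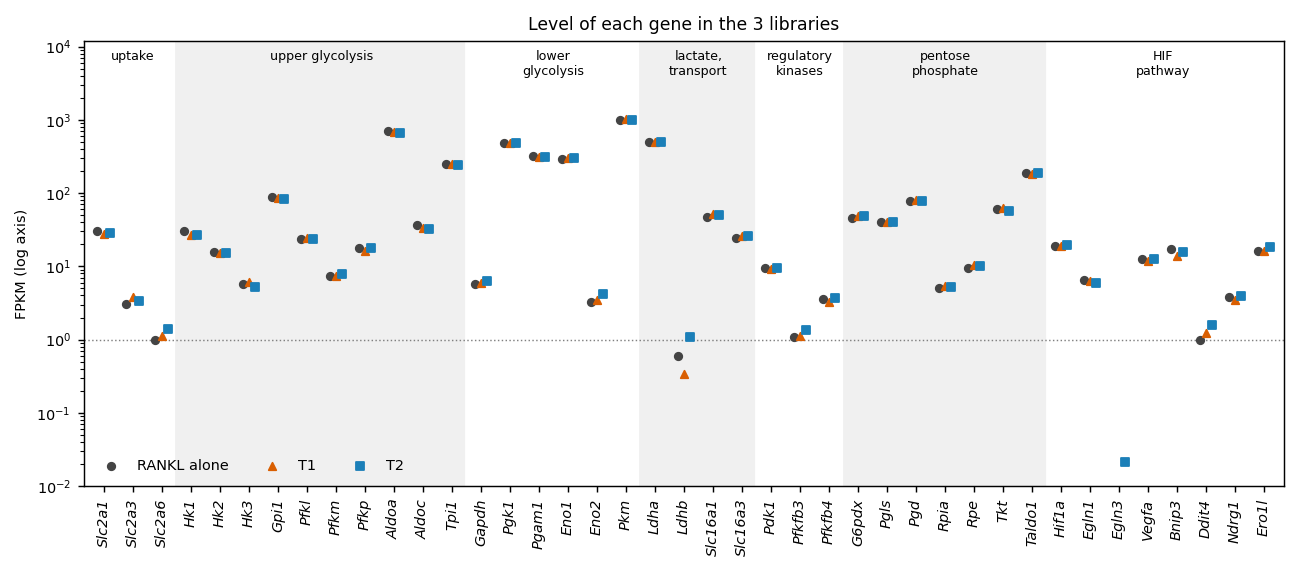
FPKM of each of the 41 genes on a log axis, ordered by role, with RANKL alone as grey circles, T1 as orange triangles and T2 as blue squares; the dotted line is 1 FPKM, and Egln3 has no point at 0 FPKM. The 3 symbols of most genes lie on top of each other, and the levels span from Pkm at 1037 FPKM in T1 to Egln3 with 1 read in T2.

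Against RANKL alone, most of these genes stood close to their control level in both TSH libraries. In T1, 5 of the 39 genes were higher and 7 lower beyond counting error, while 10.8% and 12.2% of all 11069 genes were. By the fold rule 0 were higher and 1 lower, Bnip3, against 5.12% and 5.11% of all genes. In T2, 5 were higher and 6 lower beyond counting error, against 10.2% and 13.2%, and by the fold rule 2 were higher, Eno2 and Ddit4, and 0 lower, against 5.00% and 4.91%. The median log2 change was 0.00 in T1 and 0.02 in T2, and 0.00 over all genes in both. Counting intervals are narrow for abundant genes, so the share was also read among genes averaging 20 FPKM or more. There 9 of 19 (47.4%) were beyond counting error in either direction in T1 and 9 of 19 in T2, beside 38.6% and 40.1% of the 2808 such genes. These shares are near the background and are not a result about the list.

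Both comparisons use the same library of RANKL alone. The values of each are therefore given side by side below, and what they have in common is not read as a result.

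**Figure D2:**
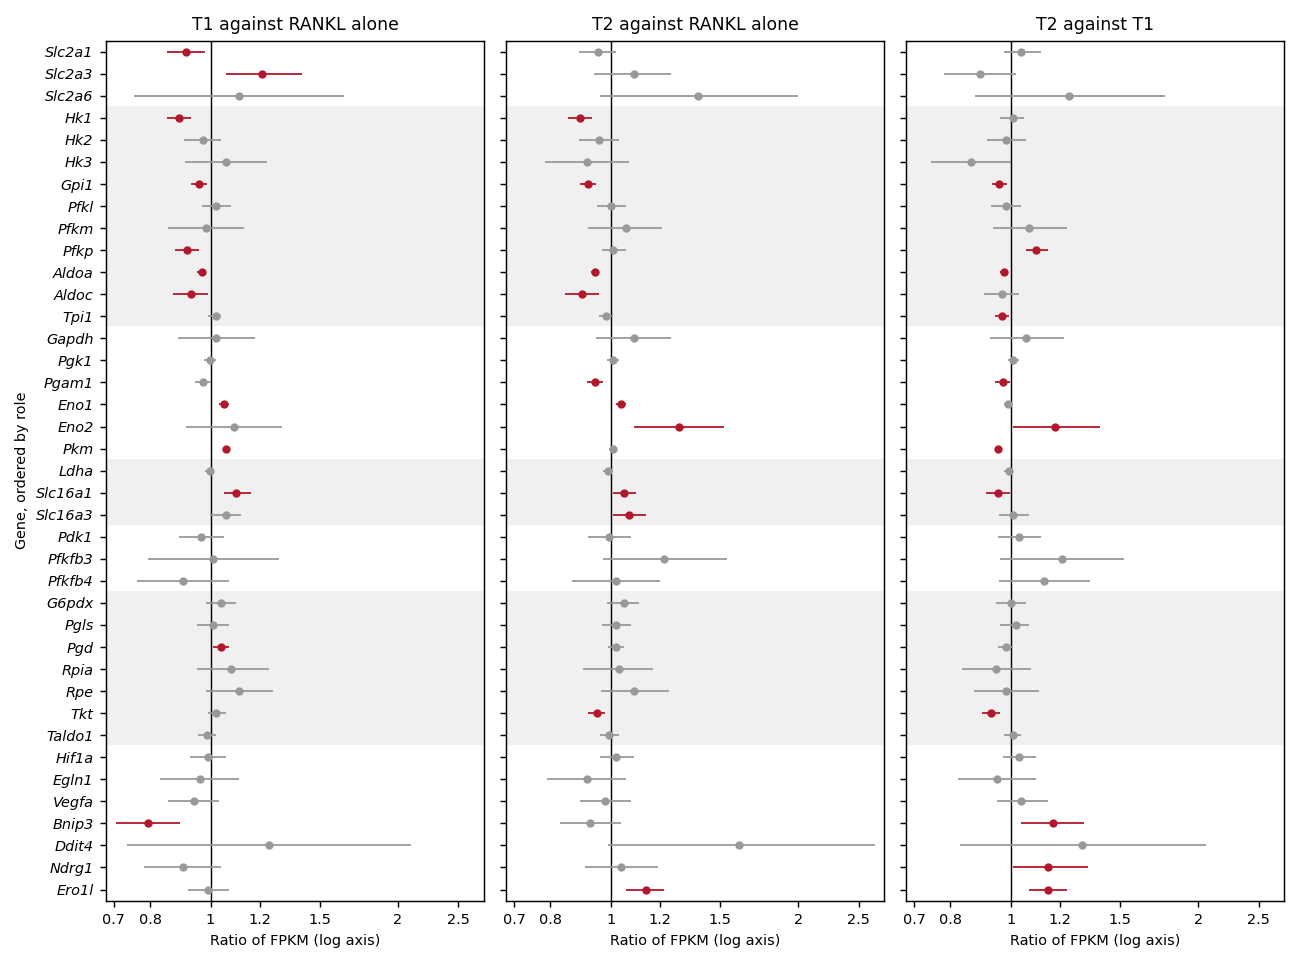
Ratio of FPKM (log axis) for the 39 genes past the filter in T1 against RANKL alone, T2 against RANKL alone and T2 against T1, ordered by role; bars are exact 95% counting intervals, and red marks intervals that leave out 1. Points scatter on both sides of 1, with Bnip3 lowest in T1 at 0.795 and Ddit4 and Slc2a6 highest in T2 at 1.61 and 1.38, both with wide intervals that include 1.

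Glucose enters through GLUT transporters. Slc2a1, the gene of the basal transporter GLUT1, was at 30.1 FPKM in the control, 27.5 in T1 and 28.7 in T2. It was lower in T1 at a ratio of 0.914 (0.853 to 0.979), and in T2 the ratio was 0.953 (0.891 to 1.02). Slc2a3, for the high-affinity transporter GLUT3, was at 3.10, 3.76 and 3.36 FPKM. The order was the reverse of that of Slc2a1, with T1 the highest library at a ratio of 1.21 (1.06 to 1.40). Slc2a6, for the lysosomal transporter GLUT6, was at 1.0, 1.11 and 1.39 FPKM from 52, 60 and 78 reads, within counting error. Slc2a1 supplied 88.0%, 84.9% and 85.8% of the FPKM of these 3 genes.

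The upper steps of glycolysis form the largest group. Of its 10 genes, 0 were higher and 5 lower beyond counting error in T1, where 10.8% and 12.2% of all genes were, and 0 and 4 in T2, against 10.2% and 13.2%. Among its 6 genes with at least 20 FPKM, 4 (66.7%) were called in either direction in each TSH library, beside 38.6% and 40.1% of all such genes. The median log2 change was -0.04 and -0.07. Hk1, the hexokinase that traps glucose in most tissues, was at 30.3 FPKM in the control, 26.9 in T1 and 27.1 in T2. Both TSH libraries lay below the control, at ratios of 0.889 (0.851 to 0.929) and 0.894 (0.856 to 0.934). Hk2, the inducible hexokinase, was at 15.8, 15.4 and 15.2 FPKM and Hk3 at 5.74, 6.07 and 5.25 FPKM, within counting error. Hk1 held 58.4%, 55.6% and 57.0% of hexokinase FPKM.

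Gpi1, which turns glucose 6-phosphate into fructose 6-phosphate, was at 89.3, 85.6 and 82.1 FPKM. The ratios were 0.959 (0.931 to 0.987) in T1 and 0.920 (0.894 to 0.947) in T2, so that the control was highest and T2 lowest. Aldoa, the main aldolase, which splits fructose 1,6-bisphosphate, followed the same order at 704, 681 and 665 FPKM. Its ratios were 0.968 (0.953 to 0.983) and 0.945 (0.931 to 0.959). Aldoc, the aldolase best known from brain, was at 36.3, 33.8 and 32.7 FPKM, with ratios of 0.930 (0.872 to 0.992) and 0.900 (0.844 to 0.959). The T1 call of Aldoc was lost with a 99% interval (log2 change -0.10).

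Phosphofructokinase, the committed step, is made from 3 genes. Pfkp, the platelet form, was at 17.6 FPKM in the control, 16.1 in T1 and 17.8 in T2. T1 was the low library, at 0.917 (0.876 to 0.960), while the ratio in T2 was 1.01 (0.968 to 1.06). Pfkl, the liver form, was at 23.7, 24.2 and 23.8 FPKM and Pfkm, the muscle form, at 7.46, 7.34 and 7.88 FPKM. Their shares of the family's FPKM with RANKL alone were 48.6% for Pfkl, 36.0% for Pfkp and 15.3% for Pfkm. Tpi1, which interconverts the triose phosphates, was at 247, 251 and 243 FPKM, within counting error of the control.

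**Figure D3:**
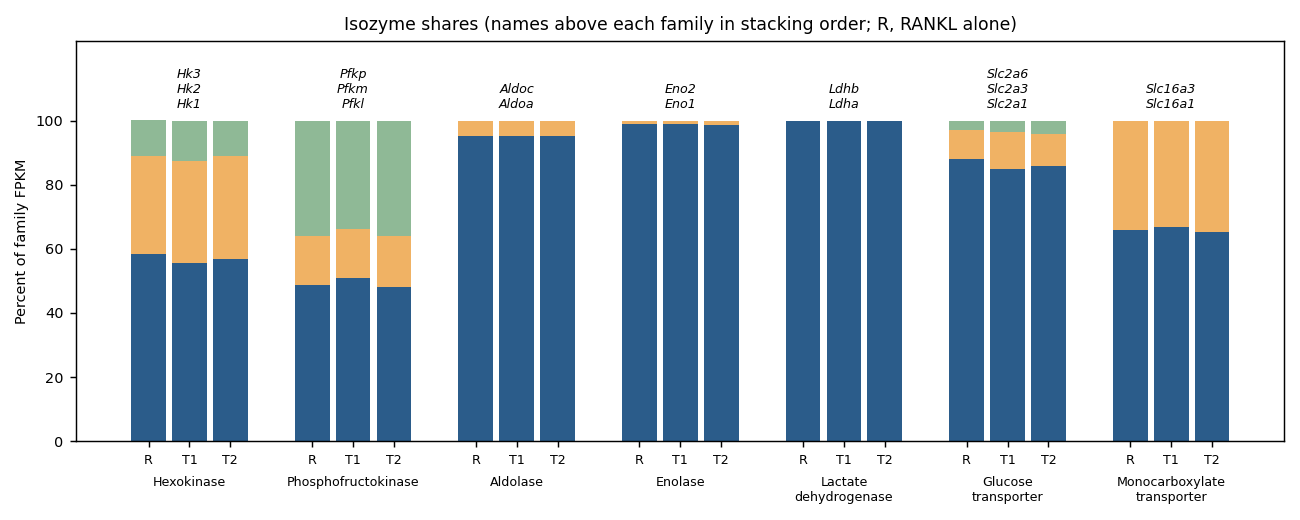
Share of each isozyme in the summed FPKM of its family, in percent, for 7 families and the 3 libraries (R, RANKL alone); the names above each family give the stacking order. The leading gene was the same in every library, from Pfkl at 48.6% with RANKL alone to Ldha at 99.9%. The enolase bars hold Eno1 and Eno2 and leave out Eno3 and Eno1b, a near-identical copy of Eno1 listed as protein-coding.

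In the lower steps the abundant genes went both ways. Pkm, the pyruvate kinase gene and the most abundant of the 41, was at 983 FPKM in the control, 1037 in T1 and 988 in T2. T1 stood above the others, at 1.06 (1.05 to 1.07) against RANKL alone, and T2 was at 1.01 (0.996 to 1.02). Eno1, the main enolase, was at 289, 304 and 302 FPKM, higher in both at 1.05 (1.03 to 1.07) and 1.04 (1.02 to 1.06). Eno2, the enolase best known from neurons, was at 3.22, 3.50 and 4.14 FPKM. Its T2 ratio of 1.29 (1.09 to 1.52) was the largest beyond counting error against the control. Pgam1, phosphoglycerate mutase, was at 324, 315 and 306 FPKM and was lower in T2 at 0.944 (0.918 to 0.971). Pgk1, which makes the first ATP of the pathway, was at 478, 477 and 481 FPKM, with intervals from 0.977 to 1.02 in T1 and from 0.986 to 1.03 in T2. Of the 6 genes, 2 were higher and 0 lower in T1, where 10.8% and 12.2% of all genes were. In T2, 2 were higher and 1 lower, against 10.2% and 13.2%. Among the 4 with at least 20 FPKM, 2 were called in either direction in each TSH library, beside 38.6% and 40.1% of all such genes.

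Gapdh, the enzyme that makes the pathway's NADH and a common reference gene, was listed at 5.75 FPKM in the control, 5.87 in T1 and 6.24 in T2. These levels rest on 383, 407 and 452 reads and place Gapdh at rank 6339, while the enzymes before and after it, Tpi1 and Pgk1, were at 247 and 478 FPKM. Gapdh lies at chr6:125161715-125166467 on the minus strand. Its reads were set beside those of its near-identical copies (at least 95% identity over at least 100 bases), of which there were 106, 101 of them pseudogenes, on 21 chromosomes. Gm13394, at chr2:28933610-28934609 on the minus strand, held 11704, 13472 and 13844 reads, or 726, 803 and 790.0 FPKM. That was 95.7%, 94.3% and 95.5% of the reads of all copies, and Gapdh itself held 3.04%, 2.77% and 3.02% of the sum. A second pseudogene, Gm7336 on chromosome 7, had 0 differences over the 1002 coding bases and held 54, 85 and 68 reads. The deposited level listed under Gapdh therefore does not count the reads placed on a sequence with 1 base of difference, and why they were placed there was not tested.

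With the copies added, the Gapdh sum was 12610, 14692 and 14953 reads. Its ratio was 1.12 (1.09 to 1.15) in T1 and 1.09 (1.07 to 1.12) in T2, beyond counting error, whereas the gene's own reads gave 1.02 (0.887 to 1.18) and 1.09 (0.946 to 1.25). Gm13394 alone gave 1.11 (1.08 to 1.13) and 1.09 (1.06 to 1.12). Eno1 was the other gene with many reads in copies. It held 59.3%, 58.9% and 60.2% of its sum, beside Gm4735 on chromosome 2 at 364, 383 and 354 FPKM and Eno1b at 331, 360.0 and 342 FPKM. The Eno1 sum was higher in both TSH libraries as well, at 1.06 (1.04 to 1.07) and 1.03 (1.01 to 1.04). For Pgam1 the sum moved the T1 call, from 0.972 (0.945 to 1.0) to 0.970 (0.943 to 0.997). For the other genes past the filter with copies, among them Ldha, Pgk1, Pkm and Tpi1, the gene itself held at least 97.9% of the reads.

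**Figure D4:**
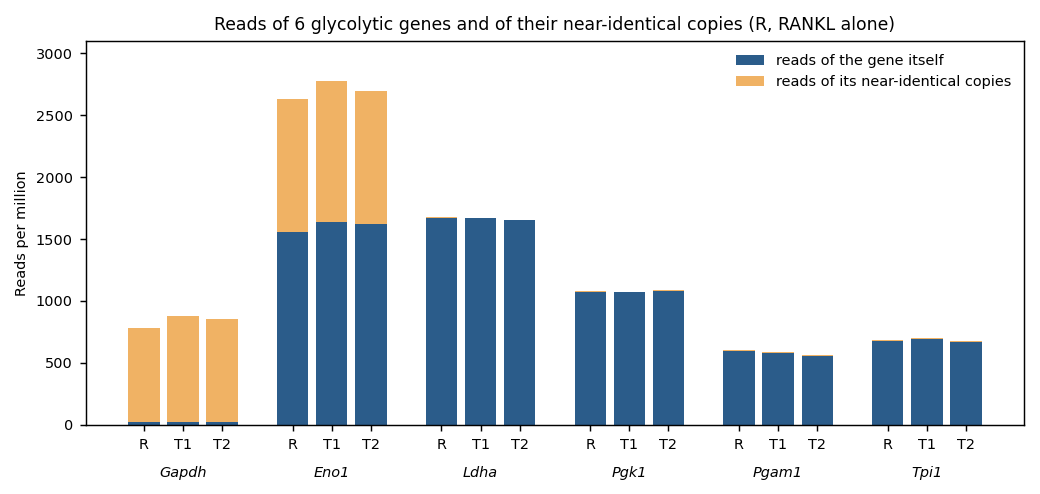
Reads scaled to library depth (RPM) of 6 glycolytic genes (blue) and of their near-identical copies (orange) in each library (R, RANKL alone), stacked from 0. Gapdh itself is a thin base of 3.04% under its copies and Eno1 holds 59.3% with RANKL alone, while copies are hardly visible for Ldha, Pgk1, Pgam1 and Tpi1.

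Lactate dehydrogenase was almost wholly the A form. Ldha, which favours lactate, was at 505 FPKM in the control, 503 in T1 and 499 in T2, with ratios of 0.997 (0.980 to 1.01) and 0.989 (0.973 to 1.01). Ldhb, the form that favours pyruvate, was at 0.592, 0.342 and 1.09 FPKM from 15, 9 and 30 reads, under the filter. Slc16a1, for the lactate transporter MCT1, was at 47.0, 51.9 and 49.6 FPKM. It was higher in both TSH libraries, at 1.1 (1.05 to 1.16) and 1.05 (1.01 to 1.1), with T1 the highest. Slc16a3, for the lactate exporter MCT4, was at 24.4, 25.8 and 26.2 FPKM. Its ratios were 1.06 (0.998 to 1.12) in T1 and 1.07 (1.01 to 1.14) in T2. The T2 calls of both transporters were lost with a 99% interval. Slc16a1 held 65.9%, 66.8% and 65.4% of the FPKM of the pair.

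Of kinases that set the pathway's pace, the list holds Pdk1, Pfkfb3 and Pfkfb4. These were low, and none of them was beyond counting error in any comparison. This does not extend to other kinases of their families, since Pfkfb2, given with the further HIF targets below, was lower in both TSH libraries. Pdk1, which blocks pyruvate dehydrogenase, was at 9.48, 9.15 and 9.44 FPKM. Pfkfb3 and Pfkfb4, whose products make the phosphofructokinase activator fructose 2,6-bisphosphate, were at 1.1, 1.11 and 1.34 FPKM and at 3.57, 3.23 and 3.65 FPKM.

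The pentose phosphate genes stood near their control level, with 1 of 7 beyond counting error in each TSH library. Of all genes, 10.8% were higher and 12.2% lower in T1, and 10.2% and 13.2% in T2. In the oxidative branch G6pdx, the NADPH-producing entry enzyme, was at 46.3 FPKM in the control, 48.3 in T1 and 48.4 in T2, and Pgls, the lactonase after it, at 39.9, 40.2 and 40.8 FPKM. Pgd, the second NADPH-producing enzyme, was at 77.3, 80.1 and 78.8 FPKM and was higher in T1 at 1.04 (1.01 to 1.07). That call was lost with a 99% interval and with libraries scaled to the same total FPKM, where the log2 change was 0.03. Of the 6 ratios of these 3 oxidative genes to the control, 1 was beyond counting error. In the non-oxidative branch, which exchanges sugars with glycolysis, Tkt, transketolase, was at 60.6, 61.9 and 57.5 FPKM. T2 was its low library, at 0.950 (0.919 to 0.981). Taldo1, transaldolase, was at 186, 183 and 185 FPKM. The isomerase Rpia was at 5.01, 5.43 and 5.15 FPKM and the epimerase Rpe at 9.36, 10.4 and 10.2 FPKM, all within counting error. The locus of G6pdx overlaps Ikbkg on the other strand, at 14.7, 13.8 and 14.2 FPKM, and the use of strand in counting is not given in the sources used here. Pfkp, Pfkm, Rpe, Tpi1, Aldoa, Hk3 and Gapdh have the same limit, since their loci also overlap protein-coding genes on the other strand. For Gapdh this is Iffo1, with 149, 167 and 146 reads beside 383, 407 and 452 for Gapdh itself. On the same strand, the locus of Pkm overlaps AC160637.1, with 1930, 2008 and 2267 reads. That of Pgls overlaps the protein-coding gene Fam129c on the same strand, with 89, 98 and 86 reads.

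Of the HIF regulators, Hif1a, the gene of the oxygen-regulated subunit, was at 19.1 FPKM in the control, 18.9 in T1 and 19.6 in T2. Egln1, the main oxygen-sensing hydroxylase, was at 6.45, 6.21 and 5.91 FPKM, within counting error like Hif1a. Egln3, a hydroxylase that is itself a HIF target, had 0, 0 and 1 reads, and 0 reads with RANKL alone allow a level of up to 0.0699 FPKM. Its mRNA was thus at the edge of detection in these libraries. mRNA levels do not measure the HIF protein.

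Among the HIF targets, Bnip3, a mitophagy receptor, was at 17.2 FPKM in the control, 13.7 in T1 and 15.9 in T2. T1 was the low library at 0.795 (0.706 to 0.894), from 628 and 519 reads, and T2 was at 0.928 (0.829 to 1.04). Ero1l, an oxidase that forms disulfide bonds in the endoplasmic reticulum, was at 16.1, 16.0 and 18.3 FPKM. Here T2 stood alone above the others, at 1.14 (1.06 to 1.22) against the control. Ddit4, an inhibitor of mTORC1 signalling also called REDD1, was at 0.989, 1.22 and 1.59 FPKM. Its T2 ratio of 1.61 passed the fold rule, but with 28 and 49 reads the interval reached from 0.992 to 2.66. Vegfa, the angiogenic growth factor, was at 12.7, 11.9 and 12.5 FPKM and Ndrg1, a stress-induced gene, at 3.79, 3.42 and 3.95 FPKM, within counting error of the control. The 7 HIF pathway genes past the filter had median log2 changes of -0.05 in T1 and 0.03 in T2.

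T2 was also set against T1 directly, which leaves the control library out. Of the 39 genes, 5 were higher and 7 lower beyond counting error, against 7.93% and 10.1% of all genes. The fold rule called 0 in either direction, against 4.12% and 4.33%. Among genes with at least 20 FPKM, 7 of 19 (36.8%) were beyond counting error, against 29.2%. The median log2 change was 0.01, and 0.00 over all genes.

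Of the higher values, 3 were HIF pathway genes: Bnip3 at 1.17 (1.04 to 1.31), Ero1l at 1.15 (1.07 to 1.23) and Ndrg1 at 1.15 (1.01 to 1.33). The ratio was above 1 for 6 of the 7 genes of that group, with a median log2 change of 0.16, beside 5410 of 11069 genes above 1 and 7.93% called higher overall. With 7 genes, this is a description of the group. Egln1 was the exception, at 0.952 (0.822 to 1.1). The other higher values were Pfkp at 1.1 (1.06 to 1.15) and Eno2 at 1.18 (1.01 to 1.39). The lower values were small and came from abundant genes. Pkm was at 0.953 (0.944 to 0.962), Tkt at 0.929 (0.900 to 0.960) and Gpi1 at 0.959 (0.932 to 0.987). The rest were Slc16a1 at 0.955 (0.913 to 0.999), Tpi1 at 0.968 (0.944 to 0.994), Pgam1 at 0.971 (0.944 to 0.999) and Aldoa at 0.976 (0.961 to 0.991). Of these, 5 were no longer beyond counting error when libraries were scaled to the same total FPKM, with log2 changes of -0.03 for Gpi1, 0.00 for Aldoa, -0.01 for Tpi1, -0.01 for Pgam1 and -0.03 for Slc16a1. With a 99% interval the calls of Tpi1, Pgam1, Slc16a1, Eno2 and Ndrg1 were lost. Values of T1 enter both this comparison and that of T1 with the control, so the 2 are not separate measurements. Of the genes lower in T1 than in the control, Bnip3 and Pfkp were higher in T2 than in T1, Gpi1 and Aldoa were lower, and Slc2a1, Hk1 and Aldoc were within counting error.

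A list of 28 further HIF targets was read in the same way, and 21 passed the filter. In T1, 1 was higher and 5 lower beyond counting error (10.8% and 12.2% of all genes), in T2 2 and 5 (10.2% and 13.2%), and in T2 against T1 4 and 0 (7.93% and 10.1%). The same shares apply to the lists that follow. Their median log2 changes were -0.01, 0.04 and 0.04. Bhlhe40, a transcriptional repressor, was at 36.2 FPKM in the control, 29.6 in T1 and 31.9 in T2, with ratios of 0.816 (0.772 to 0.863) and 0.882 (0.836 to 0.931). Kdm3a, a histone demethylase, was at 19.2, 15.9 and 19.0 FPKM, with a T1 ratio of 0.829 (0.782 to 0.878). T1 was its lowest library, and its T2 ratio was 0.992 (0.940 to 1.05). Pfkfb2, another maker of fructose 2,6-bisphosphate, was at 6.10, 4.83 and 5.12 FPKM, with ratios of 0.791 (0.708 to 0.883) and 0.839 (0.753 to 0.935). Of 11 genes for HIF subunits and their control, 8 passed the filter, with 2 higher and 0 lower in T1 and 2 and 1 in T2. Vhl, the ubiquitin ligase subunit that marks HIF for degradation, was at 6.56, 7.88 and 7.86 FPKM, at 1.2 (1.03 to 1.40) and 1.2 (1.03 to 1.39). Its partner Elob was at 64.4, 70.4 and 72.9 FPKM, and Hif1an, a further HIF hydroxylase, at 8.41, 8.30 and 7.61 FPKM with a T2 ratio of 0.905 (0.824 to 0.994).

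Other isozymes and transporters of glycolysis gave 11 of 25 genes past the filter, 1 higher and 4 lower in T1 and 0 and 5 in T2. Hkdc1, a hexokinase-like gene, was at 2.66, 1.88 and 1.80 FPKM, at 0.708 (0.575 to 0.872) and 0.678 (0.550 to 0.834). Slc16a7, for the pyruvate transporter MCT2, was at 3.85, 3.42 and 3.23 FPKM and was lower in both, at 0.887 (0.798 to 0.986) and 0.840 (0.756 to 0.934). Bpgm, which makes 2,3-bisphosphoglycerate, was at 2.11, 1.58 and 2.05 FPKM. Eno3, the enolase best known from muscle, was at 91.9, 89.7 and 84.9 FPKM, well above Eno2, and was named after its level was seen. Of 11 other pentose phosphate and ribose genes 8 passed the filter, with 1 higher and 2 lower in T1 and 1 and 1 in T2. Dera, the deoxyribose phosphate aldolase, was at 6.93, 5.79 and 6.05 FPKM, at 0.835 (0.758 to 0.919) and 0.873 (0.794 to 0.959). The sedoheptulose kinase Shpk was at 1.68, 1.12 and 1.63 FPKM, with a T1 ratio of 0.665 (0.464 to 0.946), and the ribokinase Rbks at 3.37, 3.20 and 3.99 FPKM, within counting error.

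The promoters printed above were read for what the genes share in sequence. RefSeq gave promoters for 38 of the 41 genes, and Slc2a3, Ndrg1 and Ero1l had no match. In windows from 250 bases before to 50 after a start, ACGTG or GCGTG on either strand was present for 34 of 38 genes (89.5%), in at least 1 of their starts. The same was true of 43.8% of all 32851 promoters, 46.7% of 27025 genes and 70.4% of 7830 genes past the filter. ACGTG alone was present for 22 (57.9%), against 31.3% of the genes past the filter. It was found in all 6 HIF pathway genes with a promoter, in 6 of 10 upper and 4 of 6 lower glycolytic genes, in 3 of 4 lactate genes and in 1 of 7 pentose phosphate genes. Hk1, Aldoa, Pkm and Vegfa had neither core at their first listed start and matched only at a later one. Gpi1, Tpi1, Eno2 and Rpe had neither core at any start. Ldha had 7 cores at its first listed start, at -145, -144, -48, -47, -34, 26 and 38 from the start. The cores of Bnip3 were at -117, -108, -107, -99 and -35 and those of Pgk1 at -150 and -131. The genes with 5 or more cores at a start were Ldha, Slc16a1, Bnip3 and Hk1. This count takes overlapping cores separately, as in the CACGTG of Ldha, Slc16a1 and Bnip3 and the CACGCGTG of Hk1. These genes therefore have fewer separate stretches than cores. Bnip3 was lower in T1, Hk1 was lower and Slc16a1 higher in both TSH libraries, and Ldha was within counting error. A relation between the number of cores and the change was not tested. A match is a run of letters in a window, not a bound site.

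**Figure D5:**
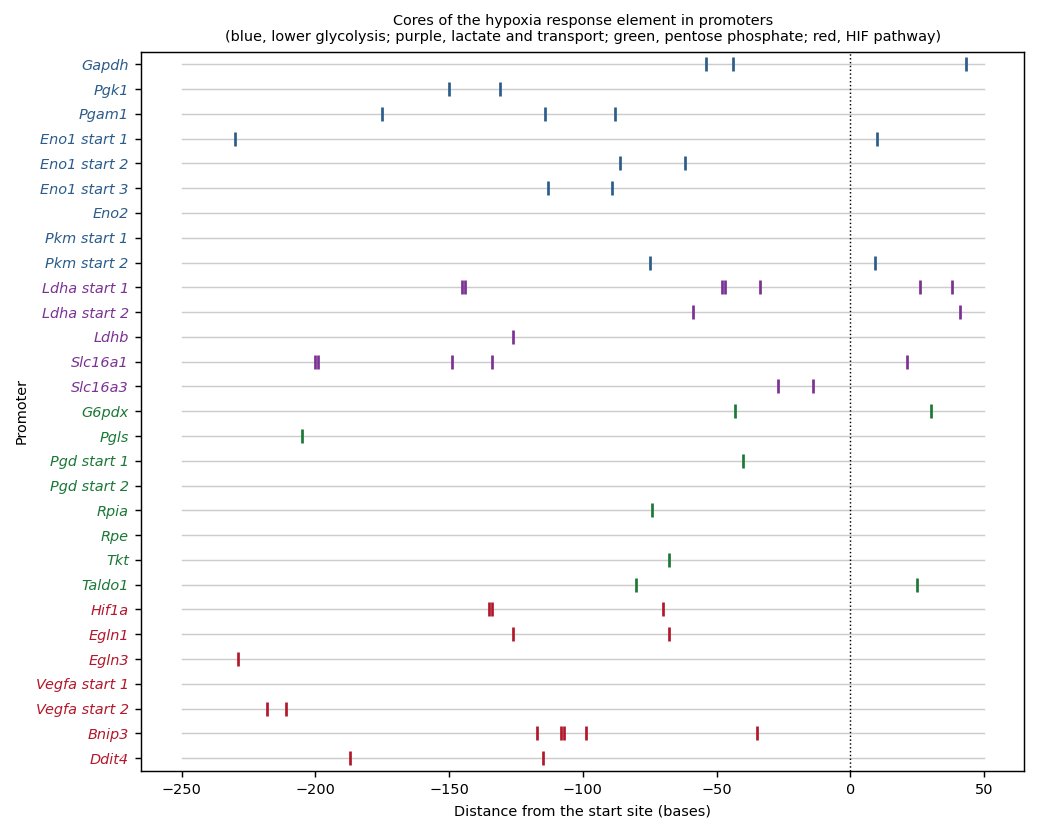
Positions of hypoxia response element cores (ticks) relative to the start site (dotted line, in bases) in promoters of the lower glycolysis, lactate, pentose phosphate and HIF pathway genes, each line being 1 RefSeq start. Ldha at its first start holds 7 ticks and Bnip3 and Slc16a1 hold 5, while Eno2 and Rpe hold none. The first starts of Pkm and Vegfa and the later start of Pgd also hold none.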

How the data were processed

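Total RNA of RAW264.7 cells was sequenced in 3 libraries, 1 per condition, prepared with a SMARTer mRNA-Seq kit, per the labels' protocols. The authors deposited FPKM per gene, with gene length in bases, and 0 per-sample columns were left unused. Builds are GRCm38 and mm10, per the submitters' processing notes, and the choice of aligner, counter, strand setting and annotation is not given in the sources used here.

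FPKM times gene length divided by a single step per library gave whole reads within 0.01 for 100% of values. For a 1 kb gene, 3 reads come to 0.186, 0.179 and 0.171 FPKM. Ratios have exact Clopper-Pearson 95% intervals, which cover counting error only, as reads from PCR need not be separate molecules. Fold changes are differences of log2(FPKM + 1) among genes averaging 1 FPKM or more, and they understate changes of low genes. Near-identical copies were found with BLAST+ 2.17.0 in GENCODE M21 transcripts (at least 95% identity, 100 bases and 50% of the shorter transcript, own locus left out). Promoters came from RefSeq (GRCm38.p6). Scripts ran in Python 3.11.15 with numpy 2.4.6, pandas 2.3.3, scipy 1.17.1 and matplotlib 3.10.9 and were tested on simulated data.

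The 41 genes and 16 other lists (226 genes, 1 symbol not found) were chosen with earlier results of these data known. All 41 are named, with up to 3 genes of each other list that have the largest log2 change, except 1 gene that is not reported here. Alternatives were the pseudocount, filter, fold, confidence level, library scaling, shares by reads, the motif and the handling of copies.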

Additional observations from a re-analysis of the deposited data

How the results depend on the processing

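With 1 library per condition no library could be left out. No paired analysis was possible because each group has 1 library. Counting error is all that depth can show here, and the members under the filter, Ldhb and Egln3, rest on 30 reads or fewer in each library. The number of genes past the fold rule was 1 in T1, and became 3 with a pseudocount of 0.1, 0 with a pseudocount of 5, 6 at 1.1-fold and 0 at 1.5-fold or 2-fold. In T2 it was 2, and became 4 with a pseudocount of 0.1, 0 with a pseudocount of 5 or a mean of at least 5 FPKM, 7 at 1.1-fold and 0 at 1.5-fold or 2-fold. In T2 against T1 it was 0, and became 2 with a pseudocount of 0.1, 1 with no filter and 8 at 1.1-fold. Shares of all genes were not taken under these changed settings, so these counts are not set against a background and are not a result about the list. Leaving out the 11 genes with a near-identical copy was chosen after seeing the data; it gave 0 by the fold rule in T1, and beyond counting error 7 in T2 and 6 in T2 against T1, from 11 and 12. The 99% interval left 7 of those 12. By reads instead of FPKM, the shares with RANKL alone were 69.1% for Hk1, 37.8% for Pfkl (below Pfkp at 56.2%), 94.5% for Aldoa, 80.4% for Slc2a1 and 61.6% for Slc16a1. With ACGTG alone as the motif, 22 genes had a match in place of 34. Single genes gave 117 values under each of these settings, and 30 where reads of copies were added, and none was reversed. The 99% interval ended 9 calls, the same total FPKM ended 6, made 4 and moved 2 values that were within counting error, median-of-ratios scaling ended 2, and adding the reads of copies made 5.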

Other observations

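Genes downstream of and beside glycolysis were read from lists that the report does not describe. A list of 23 genes held the enzymes of the tricarboxylic acid cycle, which oxidises acetyl-CoA in mitochondria, and cytosolic or related enzymes such as Acly, Me1, Me2, Mdh1, Idh1 and Aco1, and all 23 passed the filter. In T1, 1 was higher and 11 lower beyond counting error, and in T2 1 was higher and 15 lower, with median log2 changes of -0.06 and -0.09 beside 0.00 over all genes. Of all genes past the filter, 10.8% were higher and 12.2% lower in T1, and 10.2% and 13.2% in T2. Among abundant genes (at least 20 FPKM) 38.6% and 40.1% were beyond counting error in either direction, and their share by direction was not taken. Sdhb, the iron-sulfur subunit of succinate dehydrogenase, was at 92.8 FPKM in the control, 83.4 in T1 and 79.8 in T2, with ratios of 0.899 (0.856 to 0.944) and 0.860 (0.819 to 0.903). The cytosolic isocitrate dehydrogenase Idh1 was at 34.9, 30.9 and 31.9 FPKM and the cytosolic aconitase Aco1 at 23.0, 20.1 and 20.1 FPKM, both lower in each TSH library. Osteoclast markers were lower in the same libraries, as given in the report, and their part in these values was not tested. Of 14 genes of pyruvate oxidation 13 passed the filter, with 2 higher and 3 lower in T1 and 0 and 4 in T2. The subunits of the mitochondrial pyruvate carrier differed: Mpc2 was at 14.0, 11.6 and 12.1 FPKM, lower in both at 0.830 (0.773 to 0.891) and 0.863 (0.805 to 0.925). Mpc1 was at 2.00, 3.55 and 2.74 FPKM, with ratios of 1.78 (1.31 to 2.43) and 1.37 (0.998 to 1.90) from 67 reads in the control. Neither gene was checked for reads placed on near-identical copies, as was done for Gapdh and Eno1. The pyruvate dehydrogenase phosphatase Pdp1 was at 2.59, 3.27 and 2.99 FPKM.

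Of 26 genes of gluconeogenesis and glycogen, 16 passed the filter, with 3 higher and 2 lower in T1 and 3 and 3 in T2. Among all genes past the filter, 10.8% were higher and 12.2% lower in T1, and 10.2% and 13.2% in T2. The same shares apply to the other lists of this paragraph. The glucose 6-phosphatase G6pc3 was at 15.8, 18.0 and 18.9 FPKM, higher in both at 1.14 (1.02 to 1.27) and 1.19 (1.07 to 1.33). Glycogenin (Gyg) was at 8.97, 11.0 and 9.42 FPKM and the glycogen phosphatase Epm2a at 1.64, 1.42 and 1.04 FPKM. The hexosamine and sorbitol list had 6 of 8 genes past the filter, 0 higher and 2 lower in T1 and 0 and 1 in T2. Gfpt1, the entry enzyme of hexosamine synthesis, was at 24.6, 21.6 and 22.1 FPKM, Sord at 14.6, 11.9 and 13.6 FPKM and Khk at 12.5, 13.3 and 14.3 FPKM. A list on the control of glycolysis, with transcription factors and other genes such as Txnip, had 10 of 12 genes past the filter. Of these, 2 were higher and 0 lower in T1, and 2 and 1 in T2. Txnip, which restrains glucose uptake, was at 19.7, 23.0 and 22.5 FPKM, at 1.17 (1.08 to 1.27) and 1.14 (1.05 to 1.24). Sp1 was at 21.5, 22.9 and 24.1 FPKM and Mlx at 17.2, 18.6 and 19.0 FPKM. Of 12 reference genes 2 were higher and 4 lower in T1 and 3 and 5 in T2. Ppia was at 194, 366 and 378 FPKM and Rplp0 at 964, 1072 and 1059.7 FPKM, and reads placed on near-identical copies were not checked for them. Further genes of the marker lists were Oscar at 25.8, 19.6 and 19.3 FPKM and Itgb3 at 13.7, 11.3 and 11.0 FPKM among osteoclast genes. Macrophage genes went both ways, with 3 higher and 2 lower in each TSH library: Cd68 was at 578, 562 and 548 FPKM and Csf1r at 388, 371 and 369.7 FPKM, both lower in each. Lyz2 was at 194, 209 and 223 FPKM, Adgre1 at 1.82, 2.56 and 2.43 FPKM and Itgam at 1.05, 1.59 and 0.931 FPKM.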
